A study of Homo sapiens with 12 samples.

Results

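HD-MB03 is a human medulloblastoma (MB) cell line with an amplified MYC gene, taken as a model of Group 3 MB, and entinostat is an inhibitor of class I histone deacetylases. The expression of the genes that build the caveolar coat was followed in HD-MB03 cells given 1 µM entinostat for 24 h, the solvent DMSO for 24 h, 1 µM entinostat for 48 h or DMSO for 48 h, with 3 biological replicates in each of the 4 groups. All cells carried the same MYC amplification and grew in the same serum-containing medium, and because they are a single line, the replicates do not sample different tumors. The 8 genes were CAV1, CAV2, CAVIN1 (formerly PTRF), CAVIN2 (SDPR), CAVIN3 (PRKCDBP), EHD2, PACSIN2 and PACSIN3, a set defined by place in caveolae. Taking each probe set whose annotated symbol, current or former, was one of these gave 18 of the 54613 probe sets tested on the Affymetrix Human Genome U133 Plus 2.0 array, and all 8 genes were represented.

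Caveolae are small flask-shaped pits of the plasma membrane. Caveolins are hairpin-shaped membrane proteins that assemble in the Golgi, cavins are cytosolic proteins that coat the caveolin-rich membrane, EHD2 is an ATPase that holds the pit at the surface, and PACSINs are F-BAR domain proteins that bend its neck. Caveolae are abundant in endothelial cells, adipocytes, smooth muscle and fibroblasts and scarce in most neurons, and they flatten to buffer the membrane against stretch.

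CAV1 and CAV2 lie next to each other on chromosome 7, and both rose under entinostat, whereas CAVIN2 on chromosome 2 stayed dim. For this reason their promoters are shown. Of the 8 genes, 5 (CAV1, CAV2, CAVIN2, EHD2 and PACSIN2) matched an entry among the RefSeq promoter windows of build GRCh38.p14, each reaching from 250 bases before a transcription start to 50 bases after it. CAVIN1, CAVIN3 and PACSIN3 are named only. Where a gene had several windows, that at its outermost start was taken, and capitals mark GC boxes, the letters GGGCGG or on the other strand CCGCCC.
CAV1 promoter (chr7:116524759-116525058, plus strand): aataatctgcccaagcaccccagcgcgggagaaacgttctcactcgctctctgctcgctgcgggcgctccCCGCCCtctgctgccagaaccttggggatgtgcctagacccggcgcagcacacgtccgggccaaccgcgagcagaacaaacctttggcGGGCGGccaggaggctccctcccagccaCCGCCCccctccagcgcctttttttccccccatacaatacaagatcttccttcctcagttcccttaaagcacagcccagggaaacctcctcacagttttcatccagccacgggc
CAV2 promoter (chr7:116499488-116499787, plus strand): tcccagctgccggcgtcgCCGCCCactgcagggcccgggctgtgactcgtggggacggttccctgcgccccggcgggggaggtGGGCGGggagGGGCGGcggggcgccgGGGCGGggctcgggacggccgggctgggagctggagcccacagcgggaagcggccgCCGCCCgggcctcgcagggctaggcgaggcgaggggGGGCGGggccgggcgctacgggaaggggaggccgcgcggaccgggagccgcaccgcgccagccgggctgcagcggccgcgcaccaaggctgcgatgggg
CAVIN2 promoter (chr2:191847039-191847338, minus strand): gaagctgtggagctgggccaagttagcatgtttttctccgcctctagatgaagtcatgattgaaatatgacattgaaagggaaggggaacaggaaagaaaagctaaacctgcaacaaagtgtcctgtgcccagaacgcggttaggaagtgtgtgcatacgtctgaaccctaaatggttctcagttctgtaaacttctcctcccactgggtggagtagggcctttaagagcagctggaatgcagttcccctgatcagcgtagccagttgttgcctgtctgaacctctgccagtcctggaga

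The CAV2 window held 6 GC boxes and 43 CpG dinucleotides, and 95.1% of the 27305 windows of the same length, 1 per gene, held fewer CpGs. The CAV1 window held 3 GC boxes and 19 CpGs, a number above that of 57.3% of windows. CAVIN2 had no GC box and 5 CpGs, against a median of 13 CpGs over all windows. The windows of EHD2 and PACSIN2, whose expression differed less than that of CAV1, held 30 and 27 CpGs, more than the CAV1 window, and 1 and 2 GC boxes. A GC box on either strand was found in 44.5% of windows. Neither a TATA box (TATAAA, in 12% of windows on either strand) nor a CCAAT box (CCAAT, 35.7%) was found in the 3 windows printed, and PACSIN2 had 3 CCAAT boxes. The letters GGAATG, the core that TEAD factors recognise, occurred once in the CAVIN2 window and in neither caveolin window, against 14.1% of all windows. These matches describe the letters of the windows, and neither factor binding nor DNA methylation was measured in these samples.

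The values are normalized intensities on a linear scale. Array medians lay between 80.6 and 81.8, the lowest value was 36.7, and 25.2% of all values were under 60. Background may thus remain in the values, and if so, a log2 fold change understates the change of a dim probe set. Of 8 marker genes of Group 3 MB, 5 or 6 had a mean log2 intensity of at least 7 in each group. MYC was among them, with a mean of 11589 in entinostat and 11257 in DMSO at 24 h. None of 7 endothelial and none of 5 adipocyte markers reached a mean log2 of 7 in any group, against 2 of 5 smooth muscle and 1 of 6 fibroblast markers. Several Group 3 MB markers were lower with entinostat, as given with the other markers below. In bulk RNA, fewer cells of a type and less RNA per cell cannot be told apart.

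At 24 h, 10 of the 18 probe sets were higher with entinostat than with DMSO, 1 was lower and 7 did not pass an adjusted p of 0.05 (limma, Benjamini-Hochberg over all probe sets). Over all 54613 probe sets, 12.8% were higher and 12.4% lower. The 10 that rose belong to 5 genes, CAV1, CAV2, CAVIN1, EHD2 and PACSIN2, and the 1 that fell was that of PACSIN3. At 48 h, 8 probe sets of 4 genes were higher, 1 was lower and 9 did not pass, against 12.9% higher and 13.2% lower among all probe sets. In the additive model of treatment and time, 11 rose, 1 fell and 6 did not pass, where 15.7% of all probe sets were higher and 17% lower. Several of the 18 probe sets measure the same gene. Taking 1 probe set per gene, that of highest mean, 5 of the 8 genes rose, 1 fell and 2 did not pass in this model. Among all 19775 genes so taken, 21% rose and 19.7% fell. The median log2 fold change of the 18 was 0.29 at 24 h and 0.14 at 48 h, while that of all probe sets was -0.03 and -0.02. All 3 entinostat arrays lay above all 3 DMSO arrays for 11 of the 18 at 24 h and for 9 at 48 h, which held for 17.4% of all probe sets at either time. They lay below for 1 at 24 h and 2 at 48 h, against 21.5% and 20.5% of all probe sets.

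**Figure D1:**
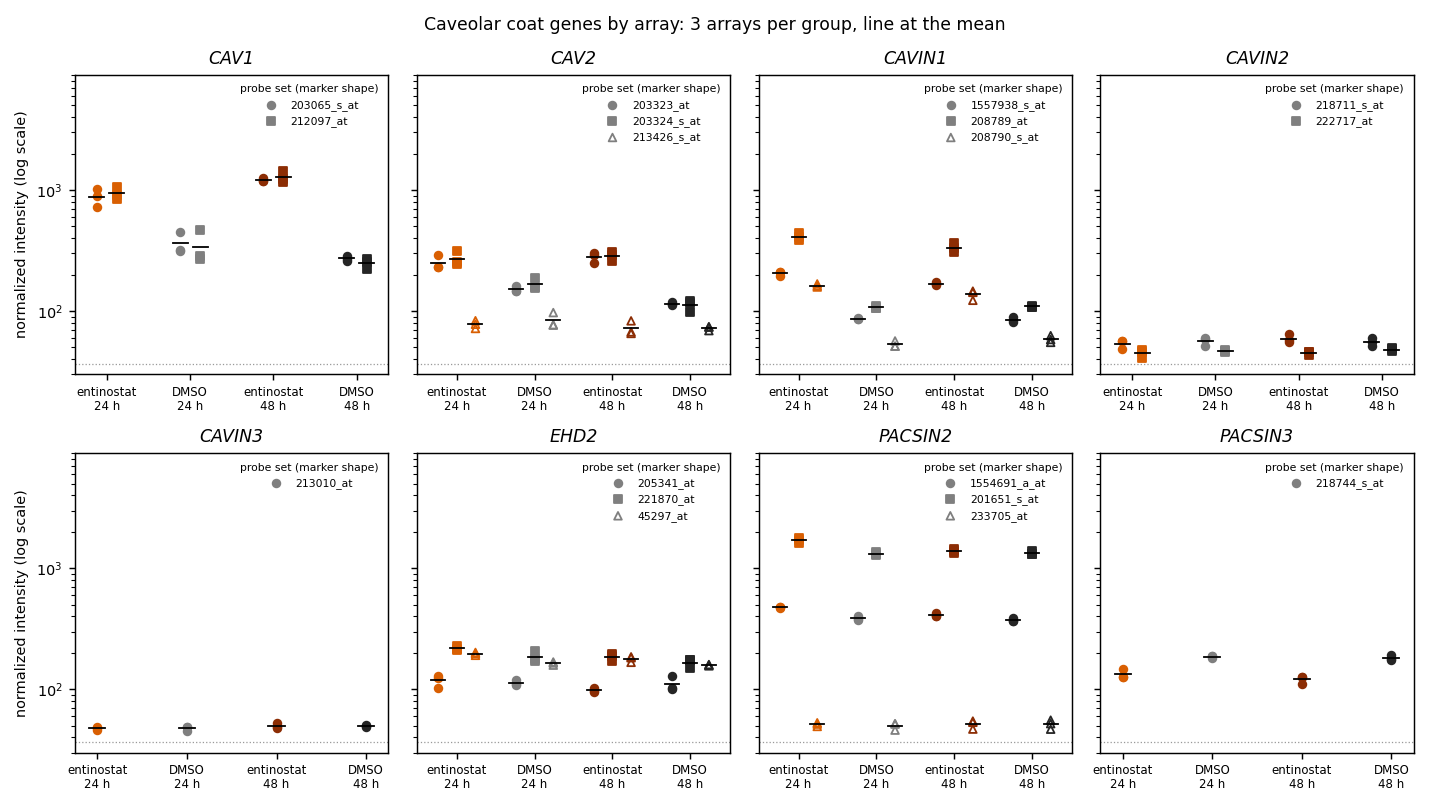
Normalized intensity (vertical log axis) of each of the 18 probe sets on each of the 12 arrays, with the groups along the horizontal axis, 1 panel per gene, marker shapes for probe sets, black lines at group means and a dotted line at the lowest value of all arrays, 36.7. Entinostat arrays stand above DMSO arrays for both CAV1 sets, 2 CAV2 sets and all 3 CAVIN1 sets, those of PACSIN3 stand below, and CAVIN2 and CAVIN3 stay near the dotted line.

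CAV1 encodes the caveolin without which non-muscle cells form no caveolae. Its probe set 203065_s_at read 1013, 886 and 719 in the 3 entinostat arrays at 24 h, against 451, 318 and 315 in DMSO. At 48 h it read 1254, 1187 and 1177 in entinostat and 287, 261 and 269 in DMSO. The groups did not overlap at either time, and the entinostat arrays lay closer together at 48 h than at 24 h. The difference was 2.43-fold at 24 h (log2 fold change 1.28 ± 0.14 SE, adjusted p = 1.9e-05 from limma) and 4.43-fold at 48 h (2.15 ± 0.14, adjusted p = 2.4e-07).

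The second CAV1 probe set, 212097_at, read 1051, 912 and 850 in entinostat and 466, 285 and 271 in DMSO at 24 h. At 48 h its values were 1244, 1442 and 1161 in entinostat and 271, 256 and 224 in DMSO. The arms were again apart, with DMSO replicate 1 at 24 h well above the other DMSO arrays. Its log2 fold change was 1.50 ± 0.17 at 24 h (adjusted p = 3.5e-05, limma) and 2.36 ± 0.17 at 48 h (adjusted p = 7.3e-07). At 48 h, 37 of the 54613 probe sets had a larger log2 fold change than 212097_at and 59 a larger one than 203065_s_at.

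CAV2 encodes the partner that enters hetero-oligomers with CAV1 and needs it to leave the Golgi. Its probe set 203323_at gave 288, 231 and 231 in entinostat and 160, 146 and 148 in DMSO at 24 h. At 48 h the values were 289, 304 and 250 in entinostat, against 118, 114 and 112 in DMSO. As for CAV1, no entinostat array reached down to a DMSO array. The log2 fold change was 0.72 ± 0.09 at 24 h (adjusted p = 8.1e-05, limma) and 1.29 ± 0.09 at 48 h (adjusted p = 5.8e-07).

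Probe set 203324_s_at of CAV2 read 313, 252 and 244 in entinostat and 189, 156 and 158 in DMSO at 24 h, then 309, 259 and 288 in entinostat and 120, 117 and 97.7 in DMSO at 48 h. It was higher in all entinostat arrays of either time, by a log2 fold change of 0.68 ± 0.12 (adjusted p = 7.1e-04, limma) and 1.35 ± 0.12 (adjusted p = 2.4e-06). The remaining CAV2 probe set, 213426_s_at, was dim. It lay between 65.2 and 83.1 in entinostat and between 68.8 and 97.0 in DMSO, its groups overlapped, and it did not pass at 24 h (log2 fold change -0.10, adjusted p = 0.58) or 48 h (-0.02, adjusted p = 0.95). The 3 probe sets of CAV2 thus disagreed, and the 2 brighter ones carry the rise.

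CAVIN1 encodes the cavin that caveolae require besides the caveolin. Its probe set 208789_at read 408, 437 and 385 in entinostat, against 109, 107 and 106 in DMSO, at 24 h. At 48 h it read 332, 308 and 364 in entinostat and 110, 109 and 108 in DMSO. The DMSO arrays of both times lay between 106 and 110, and each entinostat array was far above them. The difference was 3.81-fold at 24 h (log2 fold change 1.93 ± 0.07, adjusted p = 4.0e-09, limma) and 3.06-fold at 48 h (1.61 ± 0.07, adjusted p = 8.2e-09). At 24 h, 83 of all probe sets had a larger log2 fold change.

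The other CAVIN1 probe sets moved in the same direction. Probe set 1557938_s_at read 212, 208 and 194 in entinostat and 87.7, 86.1 and 85.8 in DMSO at 24 h, and 163, 174 and 166 in entinostat and 83.6, 89.8 and 81.5 in DMSO at 48 h, with log2 fold changes of 1.24 ± 0.06 (adjusted p = 1.7e-08, limma) and 0.98 ± 0.06 (adjusted p = 8.3e-08). For 208790_s_at the arrays read 158, 167 and 162 in entinostat and 56.5, 51.2 and 51.1 in DMSO at 24 h, and 142, 146 and 122 in entinostat and 58.1, 55.0 and 62.5 in DMSO at 48 h. The DMSO values of 208790_s_at were near the lowest values of the arrays. Its log2 fold changes were 1.62 ± 0.08 (adjusted p = 2.4e-08, limma) and 1.22 ± 0.08 (adjusted p = 1.7e-07). They became 2.54 and 1.91 when 30 was subtracted from every intensity as an assumed background.

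CAVIN2, a cavin that shapes membrane curvature, and CAVIN3, which binds protein kinase C delta, did not leave the floor. The 2 probe sets of CAVIN2 read between 41.1 and 64.4 in entinostat and between 45.8 and 60.3 in DMSO. The single CAVIN3 probe set, 213010_at, lay between 46.5 and 52.3 in entinostat and between 45.0 and 50.7 in DMSO. Their log2 fold changes lay between -0.09 and 0.08 at the 2 times, with adjusted p of 0.35 or more (limma). For CAVIN2 222717_at all 48 h entinostat arrays were below those of DMSO, by a log2 fold change of -0.09 ± 0.06 (adjusted p = 0.35). A change in either gene was not detectable at these intensities.

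EHD2 differed little. Its probe set 45297_at read 191, 202 and 198 in entinostat and 165, 168 and 158 in DMSO at 24 h, and 167, 182 and 185 in entinostat and 158, 160 and 156 in DMSO at 48 h. The arms did not overlap at either time. The log2 fold change was 0.26 ± 0.05 at 24 h (adjusted p = 0.0025, limma) and 0.17 ± 0.05 at 48 h (adjusted p = 0.033). The call at 48 h was lost without entinostat replicate 2 (adjusted p = 0.099) or 3 (0.118), or without DMSO replicate 1 (0.0732), 2 (0.0607) or 3 (0.0929). It was also lost after subtraction of 30 (log2 fold change 0.21, adjusted p = 0.0635), with a trended robust prior (adjusted p = 0.063) and with separate fits per time (0.0823).

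EHD2 probe set 221870_at read 211, 228 and 215 in entinostat and 179, 207 and 170 in DMSO at 24 h, where the arms were apart, but at 48 h they overlapped, with 196, 189 and 171 in entinostat and 175, 174 and 150 in DMSO. It passed over both times (log2 fold change 0.20 ± 0.06, adjusted p = 0.020, limma) but not at 24 h (0.24 ± 0.09, adjusted p = 0.060) or 48 h (0.16 ± 0.09, adjusted p = 0.22). At 24 h it passed without DMSO 24 h replicate 2 (0.32, adjusted p = 0.0145) or DMSO 48 h replicate 3 (0.24, adjusted p = 0.0454), and among probe sets with a mean log2 of at least 7 (adjusted p = 0.0358). EHD2 probe set 205341_at overlapped at both times, with log2 fold changes of 0.06 (adjusted p = 0.73) and -0.16 (adjusted p = 0.34).

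PACSIN2 encodes the widely expressed PACSIN and was raised at 24 h. Probe set 201651_s_at read 1618, 1729 and 1763 in entinostat and 1374, 1277 and 1322 in DMSO at 24 h. At 48 h it read 1346, 1447 and 1389 in entinostat and 1392, 1312 and 1308 in DMSO. The arms were separate at 24 h and overlapped at 48 h. Its log2 fold change was 0.36 ± 0.06 at 24 h (adjusted p = 3.2e-04, limma) and 0.06 ± 0.06 at 48 h (adjusted p = 0.52), and the difference between the 2 times did not pass (-0.30 ± 0.08, adjusted p = 0.091).

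Probe set 1554691_a_at of PACSIN2 read 477, 471 and 480 in entinostat and 403, 379 and 372 in DMSO at 24 h, and 423, 401 and 407 in entinostat and 368, 390 and 370 in DMSO at 48 h. Entinostat arrays were higher at both times. The log2 fold change was 0.31 ± 0.05 at 24 h (adjusted p = 5.3e-04, limma) and 0.13 ± 0.05 at 48 h (adjusted p = 0.088, and 0.0465 among probe sets with a mean log2 of at least 7). The dim probe set 233705_at lay between 46.9 and 54.6 in entinostat and between 46.0 and 55.5 in DMSO and did not pass.

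PACSIN3, the PACSIN known best from skeletal muscle and heart, was the 1 gene of the 8 with a fall. Its probe set 218744_s_at read 127, 127 and 148 in entinostat and 183, 187 and 188 in DMSO at 24 h. At 48 h the values were 126, 110 and 127 in entinostat, against 193, 176 and 177 in DMSO. All entinostat arrays of both times were below all DMSO arrays. The log2 fold change was -0.48 ± 0.08 at 24 h (adjusted p = 4.2e-04, limma) and -0.59 ± 0.08 at 48 h (adjusted p = 7.1e-05).

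**Figure D2:**
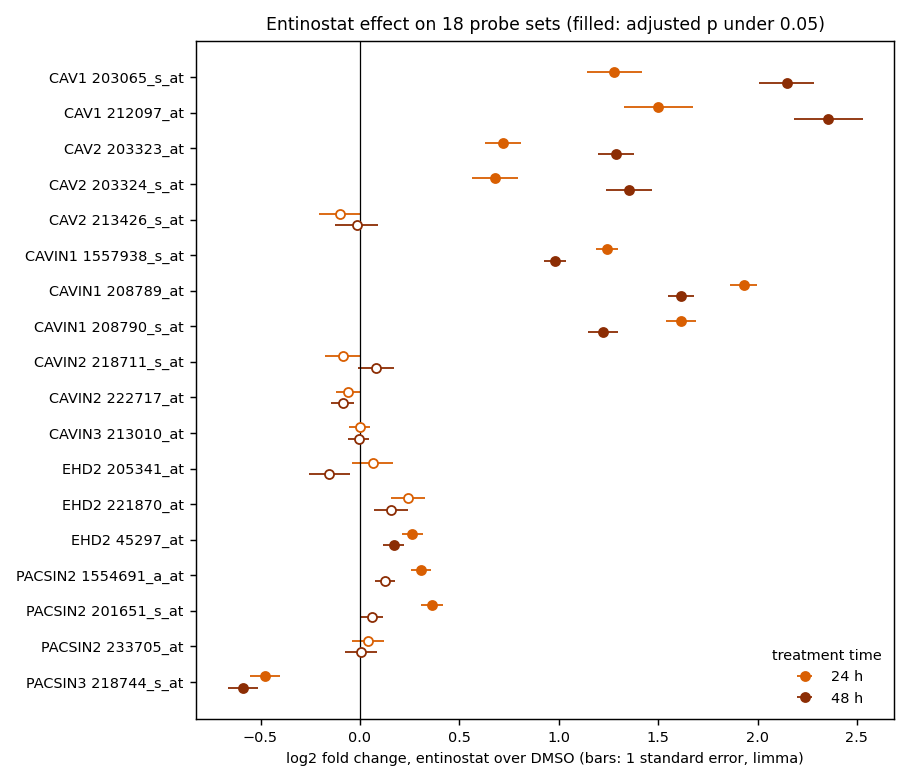
Log2 fold change, entinostat over DMSO, at 24 h and 48 h (horizontal axis, bars of 1 standard error) for each of the 18 probe sets (rows), filled where the adjusted p was under 0.05. The points of CAV1 and of the 2 brighter CAV2 sets lie further right at 48 h than at 24 h, from 0.68 to 2.36, whereas those of CAVIN1 lie further left at 48 h.

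The differences of CAV1 and CAV2 between entinostat and DMSO were larger in value at 48 h than at 24 h, and those of CAVIN1 and PACSIN2 smaller. To see whether time changed the treatment effect, the interaction of treatment and time was tested. None of the 18 probe sets passed the adjusted threshold (limma), where 1.21% of all probe sets did. At an unadjusted p under 0.05, 9 of the 18 passed, against 12.8% of all. The interaction was 0.87 ± 0.19 for CAV1 203065_s_at (adjusted p = 0.056), 0.85 ± 0.25 for 212097_at (adjusted p = 0.13), 0.57 ± 0.13 for CAV2 203323_at (adjusted p = 0.061) and 0.67 ± 0.16 for 203324_s_at (adjusted p = 0.076). Without entinostat 24 h replicate 1, which had the highest 24 h value in these 4 probe sets, the interaction passed for 203065_s_at (0.98, adjusted p = 0.0437), 203323_at (0.67, adjusted p = 0.0235) and 203324_s_at (0.79, adjusted p = 0.0411). Without entinostat 48 h replicate 3 it passed for 203323_at alone of the 18 (0.65, adjusted p = 0.0415). Among probe sets with a mean log2 of at least 7, where fewer were tested, it passed for 203065_s_at (adjusted p = 0.0324), 203323_at (0.0343), 203324_s_at (0.0429) and PACSIN2 201651_s_at (0.0461). With the replicate number as a block, it passed for 203065_s_at (adjusted p = 0.0211, limma), 203323_at (0.0369) and 203324_s_at (0.0209). Over the 12 refits without 1 array, the interaction of 203065_s_at ranged from 0.70 to 0.98 (adjusted p from 0.0437 to 0.122, limma). That of 212097_at ranged from 0.61 to 0.998 (0.088 to 0.253) and passed in none. The ranges were 0.51 to 0.67 for 203323_at (0.0235 to 0.14) and 0.58 to 0.79 for 203324_s_at (0.0411 to 0.162). For CAVIN1 the interaction lay between -0.39 and -0.26, with adjusted p between 0.11 and 0.15.

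Each arm was also followed on its own. Between 24 h and 48 h of entinostat, 4 of the 18 probe sets fell and none rose past the adjusted threshold (limma; 10 had an unadjusted p under 0.05), against 3.88% lower and 3.31% higher among all probe sets and 19.4% at the unadjusted threshold. These were CAVIN1 1557938_s_at (-0.29 ± 0.06, adjusted p = 0.0082) and 208789_at (-0.30 ± 0.07, adjusted p = 0.018), and PACSIN2 1554691_a_at (-0.21 ± 0.05, adjusted p = 0.023) and 201651_s_at (-0.29 ± 0.06, adjusted p = 0.0082). The call of 208789_at was lost without entinostat 24 h replicate 1 (adjusted p = 0.0507) or 2 (0.0797) or 48 h replicate 1 (0.0569) or 2 (0.0639). That of 1554691_a_at was lost without entinostat 24 h replicate 1 (0.0636), 2 (0.0612) or 3 (0.0721) or 48 h replicate 2 (0.0724) or 3 (0.066). CAV1 had 0.48 ± 0.14 for 203065_s_at (adjusted p = 0.057) and 0.45 ± 0.17 for 212097_at (adjusted p = 0.16). Without DMSO 24 h replicate 1, which changes the pooled spread and not the difference, both passed (adjusted p = 0.0174 for 203065_s_at and 0.024 for 212097_at), and 203065_s_at also passed without entinostat 24 h replicate 1 (0.59, adjusted p = 0.0351).

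In DMSO, none of the 18 passed between 48 h and 24 h (limma; 4 had an unadjusted p under 0.05), against 0.359% of all probe sets adjusted and 11% unadjusted. The 4 bright caveolin probe sets had log2 differences of -0.39 and -0.40 for CAV1 and -0.40 and -0.59 for CAV2, with adjusted p between 0.057 and 0.41. Without entinostat 24 h replicate 1, 203324_s_at of CAV2 passed (adjusted p = 0.0461). The 3 CAVIN1 probe sets had -0.03, 0.02 and 0.14 in DMSO (adjusted p of 0.53 or more). In CAV2 the entinostat arm had log2 differences of 0.17 and 0.09, smaller in size than those of the DMSO arm, so that in value the wider gap at 48 h was made up more of lower DMSO values than of higher entinostat values. For CAV1 the size of the DMSO difference rested on DMSO 24 h replicate 1, without which it was -0.22 for 203065_s_at (adjusted p = 0.615) and -0.15 for 212097_at (adjusted p = 0.76). For CAVIN1 the smaller gap came with lower entinostat values.

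**Figure D3:**
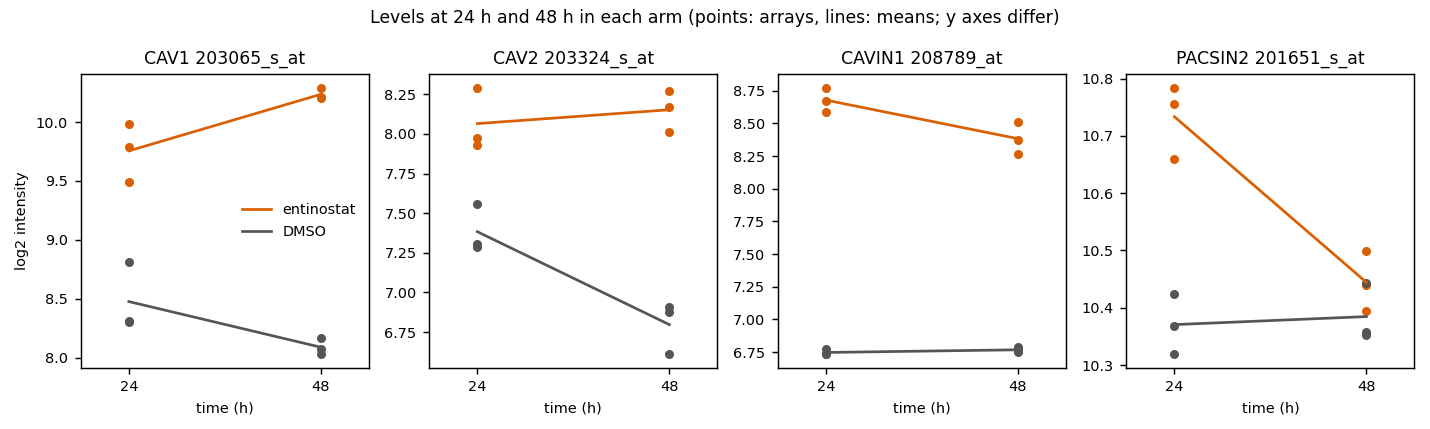
Log2 intensity (vertical axis, a different range in each panel) at 24 h and 48 h (horizontal axis) in the entinostat and DMSO arms for 1 probe set each of CAV1, CAV2, CAVIN1 and PACSIN2; points are arrays and lines join the 3-array means. The CAV1 and CAV2 arms move apart, with a log2 difference between 48 h and 24 h of 0.48 in entinostat and -0.39 in DMSO for CAV1, while the entinostat arms of CAVIN1 and PACSIN2 come down by 0.30 and 0.29 on the log2 scale.

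CAV1 and CAV2 are neighbours, and in the RefSeq annotation the genes around them on chromosome 7 stand in the order TFEC, TES, CAV2, CAV1, MET, CAPZA2, ST7 and WNT2. Of the 6 genes beside the 2 caveolins, 5 were measured by a probe set of a single symbol, each gene represented by the probe set with the highest mean, and 3 of them rose over both times and none fell. Among all 19775 genes so represented, 21% rose and 19.7% fell. The nearest on either side both rose. TES, a LIM domain protein of focal adhesions, averaged 115 ± 4.49 in entinostat and 66.0 ± 3.06 in DMSO at 24 h (SD, n = 3 each), and differed by 0.80 ± 0.07 on the log2 scale at 24 h and by 0.81 ± 0.07 at 48 h (adjusted p = 2.4e-06 and 2.0e-06, limma). The TES values are dim, and after subtraction of 30 the log2 fold changes were 1.24 and 1.21.

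MET, the receptor of hepatocyte growth factor, averaged 511 ± 45.7 in entinostat and 271 ± 3.26 in DMSO at 24 h and 666 ± 16.9 in entinostat and 306 ± 20.1 in DMSO at 48 h. Its log2 fold changes were 0.91 ± 0.07 and 1.12 ± 0.07 (adjusted p = 9.7e-07 and 1.5e-07, limma). CAPZA2, an actin capping protein subunit, rose by 0.16 and 0.25 on the log2 scale. TFEC and WNT2, which lie further out, were dim and did not pass (log2 fold changes between -0.09 and -0.03).

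**Figure D4:**
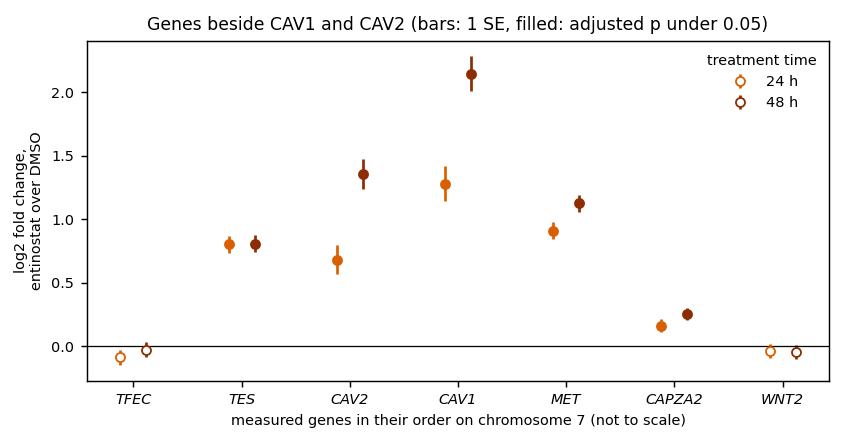
Log2 fold change, entinostat over DMSO, at 24 h and 48 h (vertical axis, bars of 1 standard error) of CAV1, CAV2 and the listed and measured genes around them in their order on chromosome 7 (horizontal axis, not to scale), filled where the adjusted p was under 0.05. The 5 genes from TES to CAPZA2 are above 0 at both times, with the highest values at CAV1 (1.28 and 2.15), and TFEC and WNT2 lie near 0, at -0.09 to -0.03.

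The paralogs of the 8 genes did not all follow them. CAV3, the muscle caveolin, was lower with entinostat at both times. Its probe set 208204_s_at read 367, 330 and 344 in entinostat and 900, 871 and 861 in DMSO at 24 h, and 317, 269 and 322 in entinostat and 790, 730 and 762 in DMSO at 48 h. The arms were far apart, and the log2 fold change was -1.34 ± 0.07 at 24 h (adjusted p = 6.7e-08, limma) and -1.33 ± 0.07 at 48 h (adjusted p = 5.8e-08). In the annotation CAV3 on chromosome 3 overlaps OXTR, the oxytocin receptor gene, and which strand or transcript gave the signal was not tested. The OXTR probe set 206825_at was dim and did not fall, with log2 fold changes of 0.34 (adjusted p = 0.0030) and 0.06 (adjusted p = 0.62).

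Of the 6 paralogs measured (CAV3, CAVIN4, PACSIN1, EHD1, EHD3 and EHD4), 2 rose, 1 fell and 3 did not pass over both times, with a median log2 fold change of 0.14, against -0.02 over all genes. EHD4 and EHD3, which act on endosomal membranes, were the 2 that rose. EHD4 rose by 1.24 ± 0.17 on the log2 scale at 24 h (adjusted p = 1.5e-04, limma) and by 0.61 ± 0.17 at 48 h (adjusted p = 0.019), and the call at 48 h was lost without entinostat 48 h replicate 2 (0.48, adjusted p = 0.0848) or DMSO 48 h replicate 3 (0.58, adjusted p = 0.061). EHD3 had 0.73 and 0.32. CAVIN4, the muscle cavin, was not past the threshold (0.25 at 24 h, adjusted p = 0.11).

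Genes that work with or beside caveolae went both ways. Of the 6 dynamins, flotillins and stomatin, 3 rose, 1 fell and 2 did not pass over both times, with a median log2 fold change of 0.10, where 21% of all genes rose and 19.7% fell. The 2 flotillins, partners in another kind of membrane microdomain, were opposed. FLOT1 averaged 1314 ± 69.0 in entinostat and 864 ± 123 in DMSO at 24 h, with log2 fold changes of 0.61 ± 0.09 and 0.59 ± 0.09, and FLOT2 averaged 483 ± 10.1 in entinostat and 619 ± 21.6 in DMSO, with -0.36 ± 0.05 and -0.63 ± 0.05. STOM, a lipid raft protein, rose by 0.44 and 0.33 on the log2 scale. DNM2, the ubiquitous dynamin that cuts vesicles from the membrane, had 0.12 (adjusted p = 0.20) and -0.13 (adjusted p = 0.18).

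Of 9 measured kinases and actin regulators linked to caveolae, 5 rose, 3 fell and 1 did not pass, with a median of 0.39, against the same shares of all genes. DIAPH1, a formin that makes actin stress fibres, rose by 0.84 and 1.04 on the log2 scale, and ROR1, a receptor that binds CAV1 and CAVIN1, by 0.66 and 0.84. The kinases that phosphorylate CAV1 went both ways, as ABL1 (-0.63 and -0.79) and SRC (-0.31 and -0.31) fell, while FYN rose by 0.67 and 0.39 (adjusted p = 2.3e-05 and 0.0013, limma). ABL2, the relative of ABL1, rose by 0.36 and 0.41. Of 12 receptors and channels found in caveolae, 4 rose, 2 fell and 6 did not pass, with a median of 0.12, and 21% of all genes rose and 19.7% fell. INSR, the insulin receptor, rose by 1.05 and 0.79 and TGFBR2 by 0.69 and 0.87, while TGFBR1, the partner of TGFBR2 in TGF-beta signalling, fell (-0.29 and -0.40), as did the water channel AQP1 (-0.98 and -1.40).

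For the clathrin coat, the other main coat of endocytic pits, 7 of 19 measured genes rose, 3 fell and 9 did not pass, with a median of 0.06, against 21% higher and 19.7% lower among all genes. CLTB, a clathrin light chain, rose by 1.48 and 1.73, and AMPH, an amphiphysin, by 0.89 and 0.87. BIN1, the other amphiphysin, fell (-0.61 and -0.52), and SNX9, a sorting nexin of clathrin pits, had -0.67 at 24 h (adjusted p = 6.9e-06, limma) and -0.14 at 48 h (adjusted p = 0.15), with an interaction of 0.54 ± 0.09 (adjusted p = 0.020). YAP1 and the TEAD factors act on CAV1 and CAVIN1 transcription in other cells. In the list of 13 such factors and targets, 4 rose, 4 fell and 5 did not pass, with a median of 0.01, where 21% of all genes rose and 19.7% fell. Of the targets, CCN1 (0.89 and 0.83) and CCN2 (0.89 and 0.58) rose, whereas YAP1 itself (-0.61 and -0.47) and TEAD2 (-0.98 and -0.98) fell. LATS2 (0.61 and 0.61) and AXL (0.34 and 0.29) rose too. ANKRD1 (-0.04 and -0.01), AMOTL1 (0.01 and -0.26) and AMOTL2 (-0.02 and 0.09) did not pass over both times.

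**Figure D5:**
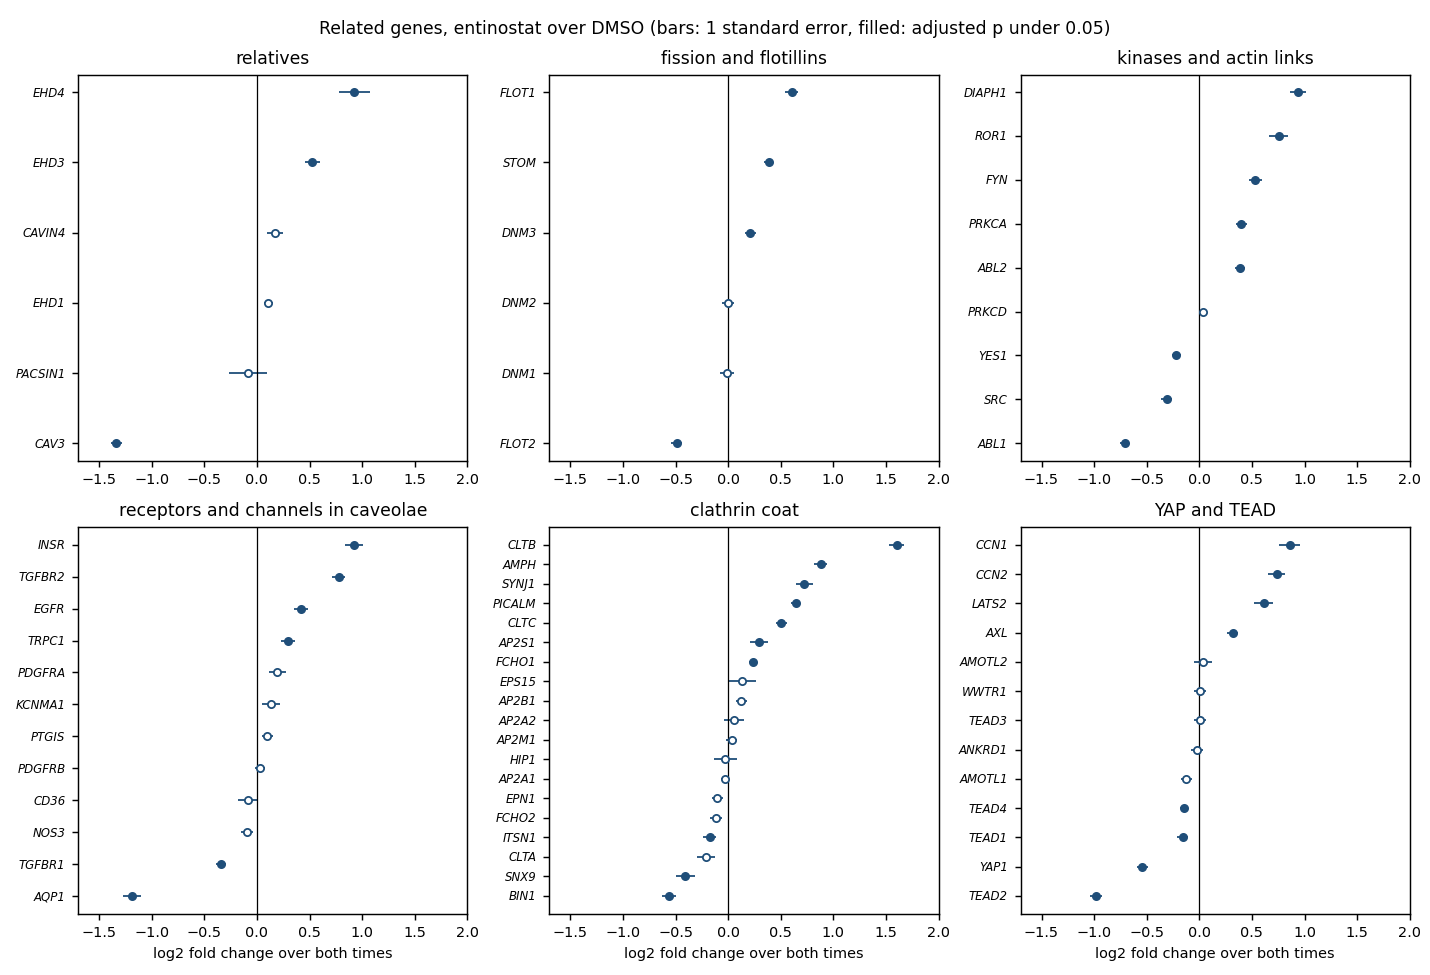
Log2 fold change over both times, entinostat over DMSO (horizontal axis, bars of 1 standard error), of the measured genes of 6 lists (panels, 1 row per gene), filled where the adjusted p was under 0.05. Each list holds genes on both sides of 0, with the furthest right at CLTB (1.60) and the furthest left at CAV3 (-1.34).

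Markers of the cell types richest in caveolae were examined beside the rise of CAV1 and CAVIN1. Of 7 endothelial markers, 3 rose over both times and none fell, against 21% and 19.7% of all genes. KDR (1.04 and 0.53), the VEGF receptor, and CLDN5 (0.49 at 24 h, and 0.03 at 48 h with adjusted p = 0.83) led them, and over both times CLDN5 had 0.26 (adjusted p = 0.026). Its call was lost without entinostat 24 h replicate 1 (adjusted p = 0.06), 2 (0.0636) or 3 (0.0545) or DMSO 24 h replicate 1 (0.062) or 3 (0.0634). The summed intensity of the 7 ranged from 554 to 590 in entinostat and from 474 to 494 in DMSO at 24 h, and from 515 to 519 in entinostat and from 474 to 494 in DMSO at 48 h. VWF was the third marker that rose, by 0.14 over both times (adjusted p = 0.012, limma). It was dim and did not pass at 24 h (adjusted p = 0.11) or 48 h (adjusted p = 0.073) alone. PECAM1 and CDH5, among the 4 that did not pass, were dim too (log2 fold changes of 0.04 and 0.10 at 24 h and 0.00 and 0.08 at 48 h). No adipocyte marker passed over both times, and their sums were 352 to 378 in entinostat and 334 to 358 in DMSO at 24 h.

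Among 5 smooth muscle markers, CNN1 rose (0.96 and 0.87), MYH11 fell over both times (-0.51 ± 0.12, adjusted p = 0.0043, limma) and the rest did not pass. Their sums ranged from 839 to 1793 in entinostat and from 900 to 2232 in DMSO at 24 h, and from 687 to 788 in entinostat and from 865 to 1101 in DMSO at 48 h. Much of these sums came from ACTA2, the brightest of the 5. It ranged from 376 to 1315 in entinostat and from 505 to 1837 in DMSO at 24 h. Taken by its probe set of highest mean, no fibroblast marker passed over both times. Their sums were 602 to 611 in entinostat and 604 to 637 in DMSO at 24 h. The count with the probe set of strongest effect differed and is given at the end. Of the 8 Group 3 MB markers, 1 rose, 4 fell and 3 did not pass over both times. Among all genes, 21% rose and 19.7% fell. The largest falls were those of IMPG2 (-2.02 and -1.52) and GABRA5 (-1.78 and -2.12). MYC was the 1 that rose, by 0.11 (adjusted p = 0.043, limma), a call lost in 9 of 12 refits without 1 array. The part of all these markers in the caveolin and cavin results was not tested.

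For CAV1 and CAV2, the genes with the most similar values over the 12 arrays were sought, among 9352 genes with a mean log2 of at least 7. The measure was the root mean square difference of log2 values after each gene was centred on its own mean. Closest to CAV1 were GK5, a glycerol kinase family member (0.13), SLC12A2, a sodium, potassium and chloride cotransporter (0.18), and PYGL, the liver glycogen phosphorylase (0.18), while the spread of CAV1 itself was 0.90. The log2 fold changes at 24 h and 48 h were 1.31 and 2.08 for GK5, while SLC12A2 had 1.49 and 1.94 and PYGL had 1.28 and 1.91. CAVIN1 stood at rank 145 (0.35) and CAV2 at rank 226 (0.39). Closest to CAV2 were DYNC1I1, a dynein intermediate chain (0.13), MID1, a microtubule-bound ubiquitin ligase (0.15), and PPIC, a cyclophilin (0.16), against a spread of 0.57 for CAV2. By this measure, other genes were closer to each caveolin over these 12 arrays than its neighbour was, as CAV1 was at rank 1241 for CAV2 (0.40). The measure counts the size of a change as well as its course, and the spreads of CAV1 and CAV2 differ. Course alone was not compared.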

How the data were processed

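RNA of HD-MB03 cells, 3 biological replicates per group, was hybridized to 12 Affymetrix Human Genome U133 Plus 2.0 arrays. The deposited values are normalized intensities, which according to the labels and the methods the authors made with GCRMA at a core facility (version not given in the sources used here). The methods name a log2 transformation, but the deposited intensities are on a linear scale, and log2 was taken here. Control probe sets (62) were left out, and 2 empty cells were treated as missing. Probe sets were named through the platform annotation, updated by Entrez ID: 41091 have 1 symbol, 1801 several and 11721 none. The number of arrays limits the precision.

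A linear model with a coefficient for each of the 4 groups was fitted over the 12 arrays by limma (version 3.58.1, run in R 4.3.3), and an additive model of treatment and time gave the effect over both times. Benjamini-Hochberg adjustment ran over 54613 probe sets, at a threshold of 0.05. In gene lists, each of 19775 genes was represented by its probe set of highest mean. The 8 genes and all lists were chosen with earlier results of these data known. Named were each probe set of the 8 genes and, of each other list, up to 2 largest rises and falls over both times among genes past the threshold, plus the 3 genes most like CAV1 and CAV2. ABL2, ACTA2, AMOTL1, AMOTL2, ANKRD1, AXL, CAPZA2, CAVIN4, DNM2, FYN, LATS2, PECAM1, CDH5, OXTR, TFEC, VWF and WNT2 were named outside this rule after their values were seen.

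The alternatives tried were subtraction of 30, normexp with an offset of 50, centred arrays, quantile normalization, a filter at a mean log2 of 7, a trended robust prior, a fit of each time alone, the replicate number as a block, other choices of probe set, a threshold of 0.01 and leaving out each array in turn. The procedure was tested on simulated data.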

Additional observations from a re-analysis of the deposited data

Results flagged for a closer look

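Among the named genes, the treatment effect differed between 48 h and 24 h past the adjusted threshold for 4, by limma's interaction of treatment and time. Of all probe sets, 1.21% passed. None of the 18 caveolar probe sets was among them. Of the genes most like CAV1 over the arrays, GK5 had an interaction of 0.77 ± 0.12 (SE, adjusted p = 0.011) and PYGL one of 0.63 ± 0.09 (adjusted p = 0.0072), and both rose more at 48 h. PPIC, among those most like CAV2, had 0.51 ± 0.09 (adjusted p = 0.027). SNX9 of the clathrin coat list fell less at 48 h, with 0.54 ± 0.09 (adjusted p = 0.020). These genes were picked with CAV1 and CAV2 in view and say nothing about the test of the caveolins themselves. GK5, PYGL and PPIC were picked for array values like those of a caveolin whose gap was larger in value at 48 h. A positive interaction was thus favoured by that choice.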

How the results depend on the processing

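No value past the threshold, in the main fit or under an alternative, changed sign among the members' probe sets and the genes named by the rule. Values that did not pass did change sign when 1 array was left out, such as CAV2 213426_s_at (-0.16 to 0.01 at 24 h and -0.12 to 0.05 at 48 h), CAVIN2 218711_s_at (-0.04 to 0.04 over both times) and CLDN5 (-0.04 to 0.07 at 48 h). Of the members' probe set values under the alternatives, 2160 stayed on their side of the threshold, 24 passed it anew and 24 no longer passed. Without _x_at and _s_at probe sets, 10 member probe sets remained, and 5 were higher and 0 lower at 24 h, 4 and 0 at 48 h and 6 and 0 over both times, with 2 lower between the times in entinostat. With a filter at a mean log2 of 7, which also leaves 10, the interaction counted 3 higher (CAV1 203065_s_at and both bright CAV2 sets) and 1 lower (PACSIN2 201651_s_at), and the time comparisons 1 higher in entinostat and 1 lower in DMSO. After subtraction of 30, and likewise at an adjusted p under 0.01, 2 were lower between the times in entinostat. Shares of all probe sets were counted for the main fit alone. Those given above do not apply to the filters or to the threshold of 0.01. Subtraction of 30 also raised the log2 fold changes of the dim TGFBR2 (1.04 at 24 h and 1.39 at 48 h), AMPH (1.42 and 1.32), CCN2 (1.57 and 1.16) and KDR (1.79 and 1.00), and of CLDN5 at 24 h (0.73).

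The main fit did not treat arrays as paired by number. Deviations from group means correlated at -0.0613 to 0.202 across genes for the 18 same-numbered pairs of arrays, 4 of them over 0.1. For the 36 differently numbered pairs they correlated at -0.21 to 0.0724, 0 of them over 0.1. Some same-numbered arrays were thus more alike, and results with a block stand beside those of the main fit. With the replicate number as a block, the interaction counted 3 higher, namely CAV1 203065_s_at (adjusted p = 0.0211) and CAV2 203323_at (0.0369) and 203324_s_at (0.0209). The entinostat arm counted 1 higher at 48 h than at 24 h (CAV1 203065_s_at, 0.0164) and the DMSO arm 1 lower (CAV2 203324_s_at, 0.0177), and EHD2 221870_at passed at 24 h (0.0198).

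Leaving out each array in turn gave 10 to 11 higher at 24 h, 7 to 8 at 48 h and 11 in each refit over both times, with 1 lower each. The interaction counted 0 to 3 higher (3 without entinostat 24 h replicate 1, 1 without entinostat 48 h replicate 3). The entinostat arm counted 0 to 2 higher (2 without DMSO 24 h replicate 1) and 2 to 4 lower (2 without entinostat 24 h replicate 1 or 2, or 48 h replicate 2), and the DMSO arm 0 to 1 lower.

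Among gene lists over both times, a threshold of 0.01 left 3 of the 8 members higher, 2 YAP and TEAD genes lower, 1 endothelial marker higher, and 0 Group 3 MB markers higher and 2 lower. With the probe set of strongest effect, 5 clathrin coat genes were lower (3 in the main choice) and 2 fibroblast markers higher (0 in the main choice). The shares of all genes at 0.01 or with this choice were not counted, so these counts have no background beside them. The causes of these shifts were not tested.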
